A study of Homo sapiens with 4 samples.

Results

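The SLC25 mitochondrial carriers are the largest group of transport proteins of the inner mitochondrial membrane. Members were taken as every row whose symbol is SLC25A followed by a number, with no filter on level, which gave 47 genes among 25133 rows with a gene symbol. Each carrier moves a particular set of small molecules between the cytosol and the mitochondrial matrix, usually by exchanging a substrate on one side for another on the other side. The genes are encoded in the nucleus and their proteins are imported through the outer membrane and inserted into the inner one by a dedicated machinery. In tumour cells the carriers are best known for exporting ATP and citrate and for supplying phosphate, amino acids, cofactors, iron and glutathione to the matrix.

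The libraries came from MDA-MB-231, an established human breast cancer line of mesenchymal character that lacks hormone receptors. In the 2 shJARID2 libraries, cells had been infected with a lentivirus for a short hairpin RNA against JARID2, a subunit that accompanies the Polycomb repressive complex that methylates histone H3 lysine 27. In the 2 shSCR libraries, cells had received a scrambled hairpin, and the genotype label is wild type. Both groups were therefore infected cells of the same line grown in the same medium, and the study compared the knockdown with the scrambled control. The labels describe a single hairpin treatment per group and do not tell whether replicates were cultured and infected separately, and p-values therefore measure only the spread between these libraries, which may be technical.

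JARID2 itself stood at 3.88 and 3.91 FPKM in shJARID2 replicates 1 and 2, against 10.8 and 10.8 FPKM in shSCR replicates 1 and 2, a log2 fold change of -1.27 (SE 0.059, limma adjusted p = 0.0014). FPKM is the number of fragments per gene, scaled to gene length and library depth. The steps between low values gave depths of about 12900000 and 12800000 reads in shJARID2 and 15500000 and 16200000 reads in shSCR. Of the markers of the line, CD44, AXL, CAV1 and MSN had between 68.9 and 417 FPKM in every library, KRT8 and KRT18 had between 6.04 and 15.0 FPKM, and ESR1, PGR, GATA3 and CDH1 were at 0.451 FPKM or less. Vimentin, which the line is known for, had only 2.10 and 2.77 FPKM in shJARID2 and 3.54 and 4.20 FPKM in shSCR, which is low for this line. Of its exon bases, 24.4% overlap VIM-AS1 and AL133415.1, and how shared reads were counted is not given in the sources used here; the part of counting in this level was not tested. The leukocyte genes PTPRC and CD3E, the endothelial genes PECAM1 and CDH5, and UCP1 and CKM of brown fat and muscle were at 0.685 FPKM or less.

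Of the 47 carriers, 32 averaged at least 1 FPKM across the libraries and were tested on log2(FPKM + 1) with limma, together with all other such genes. A gene is said to be called, higher or lower, where its Benjamini-Hochberg adjusted p over all tested genes was below 0.05. Of the tested carriers, 20 were called, with 9 higher and 11 lower in shJARID2. Across all 12455 tested genes 59.7% were called, 28% higher and 31.6% lower, so the share of called carriers was near that of genes at large. The FPKM of the 2 groups did not overlap for 24 of the 32 tested carriers, and for 82.9% of all tested genes. The median log2 fold change was 0.03 over the tested carriers and -0.02 over all tested genes, and the median absolute change was 0.42 and 0.40. On the log2 scale with 1 FPKM added, where changes of low genes are understated, 2 called carriers changed 2-fold or more, SLC25A39 and SLC25A6. By the ratio of mean FPKM, SLC25A4, SLC25A32 and SLC25A42 also did. Without shSCR replicate 2, 2168 genes were higher and 2462 lower, and the carriers called were 7 higher and 8 lower.

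Summed over all 47 carriers, the level was 596 and 588 FPKM in shJARID2 and 591 and 587 FPKM in shSCR, and these sums overlapped between the groups. As a share of the FPKM of all named rows it was 0.325% and 0.323% in shJARID2, slightly above the 0.320% and 0.315% in shSCR. SLC25A3, SLC25A5 and SLC25A6 together made up 52.3% and 52.6% of this sum in shJARID2 and 47.9% and 47.9% in shSCR.

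**Figure D1:**
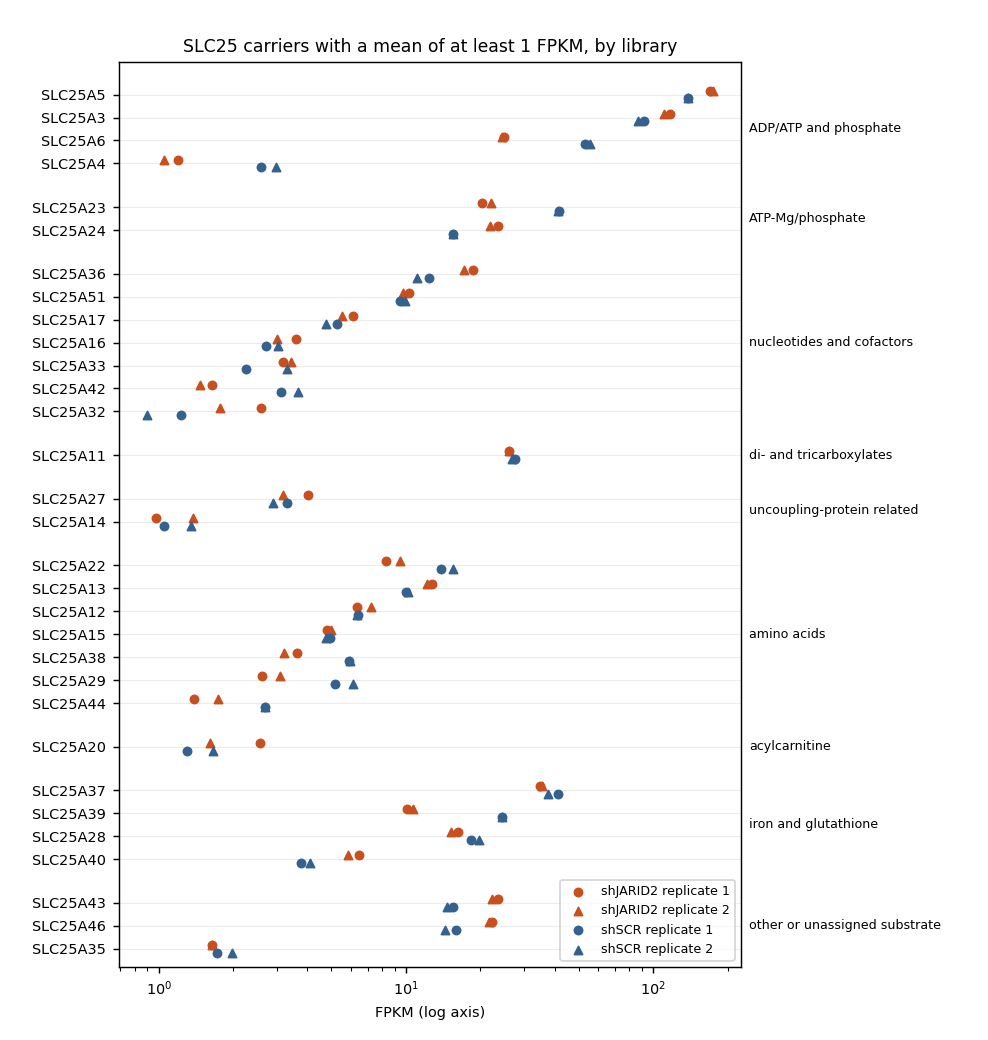
FPKM of 31 tested SLC25 carriers on a log axis, in shJARID2 (orange, upper of each pair) and shSCR (blue), with circles for replicate 1 and triangles for replicate 2. Genes are grouped by substrate and ordered by mean level within a group. SLC25A5 and SLC25A3 stand at the top with 87 to 174 FPKM, and SLC25A6, SLC25A23 and SLC25A39 show wide gaps between the groups.

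Changes followed base composition across the whole table, and the carriers were no exception. The GC content of a gene here is the median share of G and C bases over its annotated transcripts. Spearman's rho between the log2 fold change and GC content was -0.81 across the 32 tested carriers and -0.67 across 12114 tested genes with a GC value. These are descriptions across genes measured in the same 4 libraries. The 9 higher carriers had a median GC content of 44.2% (34.8% to 51.4%), and the 11 lower carriers 58.6% (49.3% to 65.9%). The 12 carriers that were not called had a median of 48.4%. Replicates of the same group also differed with GC content, with rho of 0.30 between replicate 2 minus replicate 1 and GC content in shJARID2 and 0.29 in shSCR.

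Values were therefore also computed after a smooth correction of each library for GC content. After it, 13 carriers were called, 7 higher and 6 lower, against 44.2% of all 12114 genes (22.7% higher and 21.5% lower). Of the 20 calls made as measured, 10 were made again in the same direction. These calls were for SLC25A3, SLC25A5, SLC25A36 and SLC25A43 among the higher carriers and SLC25A4, SLC25A6, SLC25A23, SLC25A38, SLC25A39 and SLC25A44 among the lower ones. For comparison, 51.9% of the calls of all genes with a GC value were made again. SLC25A11, SLC25A15 and SLC25A35 were called, all higher, only after the correction. Both groups hold 2 libraries, and a difference in GC content that came with library making and one that came with the knockdown cannot be told apart. The same holds in these bulk libraries for less RNA in every cell and fewer cells that express a gene.

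**Figure D2:**
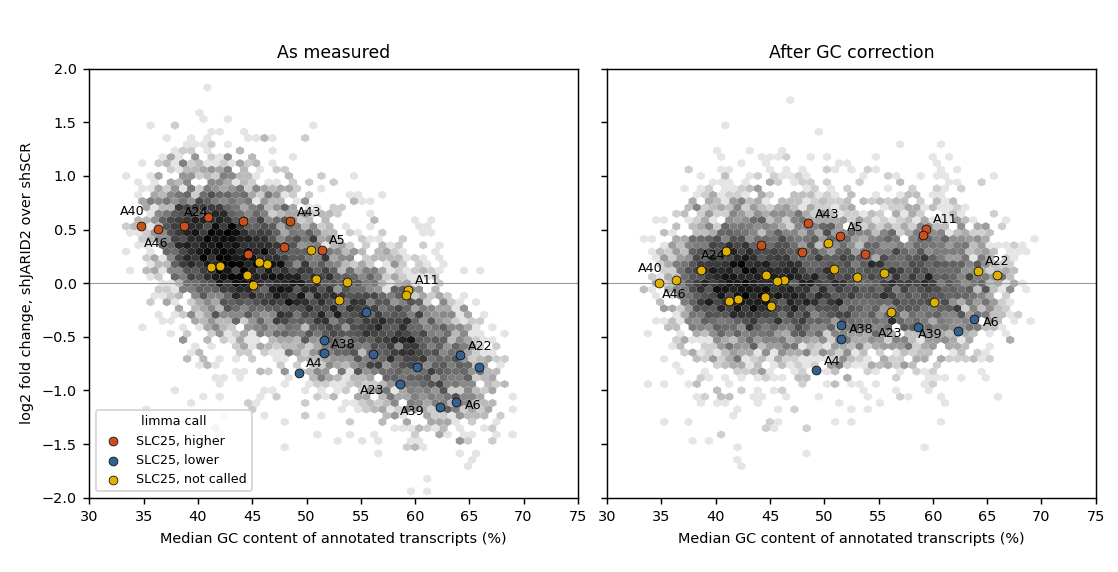
Log2 fold change of shJARID2 over shSCR (vertical axis) against the median GC content of annotated transcripts in percent (horizontal axis), as measured on the left and after GC correction on the right. Grey cells are all tested genes, darker where there are more, and points are the tested SLC25 carriers, coloured by call and labelled by the end of their symbols. As measured the carriers fall with rising GC content (rho -0.81). The correction removes the trend on GC content by design, and rho after it is -0.08.

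The ADP/ATP carriers exchange ATP made in the matrix for cytosolic ADP, and their summed level overlapped between the groups while their proportions did not. SLC25A5 (ANT2, the form of dividing cells) was higher, and SLC25A6 (ANT3, broadly expressed) and SLC25A4 (ANT1, the form of heart and muscle) were lower in shJARID2. SLC25A31, the testis form, was not analysed here. The region just before the RefSeq transcription start of each gene is printed because the 3 genes encode close relatives with the same task and moved in different directions. Each line gives 250 bases, 5′ to 3′ on the gene's own strand, from RefSeq on GRCh38.p14. The regions are chrX:119468194-119468443 on the plus strand for SLC25A5, chrX:1392114-1392363 on the minus strand for SLC25A6 and chr4:185143016-185143265 on the plus strand for SLC25A4.
SLC25A5: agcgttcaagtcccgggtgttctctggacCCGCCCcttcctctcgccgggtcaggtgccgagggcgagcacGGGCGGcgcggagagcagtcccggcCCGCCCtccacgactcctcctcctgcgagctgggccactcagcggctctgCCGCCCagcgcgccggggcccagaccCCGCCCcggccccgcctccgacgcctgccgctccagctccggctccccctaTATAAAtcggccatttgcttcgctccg
SLC25A6: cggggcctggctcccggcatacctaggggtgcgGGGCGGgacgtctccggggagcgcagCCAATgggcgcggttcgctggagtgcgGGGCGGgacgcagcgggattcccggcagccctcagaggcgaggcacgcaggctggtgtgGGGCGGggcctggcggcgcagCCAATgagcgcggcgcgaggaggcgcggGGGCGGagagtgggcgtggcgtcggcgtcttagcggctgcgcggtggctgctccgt
SLC25A4: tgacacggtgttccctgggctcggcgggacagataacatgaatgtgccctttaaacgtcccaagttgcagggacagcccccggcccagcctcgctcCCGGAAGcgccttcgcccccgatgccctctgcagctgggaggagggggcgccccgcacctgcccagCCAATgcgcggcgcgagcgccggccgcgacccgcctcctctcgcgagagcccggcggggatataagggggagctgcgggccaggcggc
Capitals mark exact matches, on either strand, to short promoter motifs. The GC box, to which Sp1 and related factors bind, was searched as GGGCGG. The box named after its letters CCAAT, to which NF-Y binds, was searched as such. The core bound by ETS family factors was searched as CCGGAAG. The box of the TATA-binding protein was searched as TATAAA. No match overlaps another in these sequences.

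SLC25A5 holds 5 GC boxes and 1 TATA box in its window, SLC25A6 holds 4 GC boxes and 2 CCAAT boxes, and SLC25A4 holds 1 CCAAT box and 1 ETS core. GC content is 73.6%, 76.8% and 71.6% in these windows, with 30, 35 and 27 CpG dinucleotides. Windows of the same length were given for 39 of the 47 carriers and for 27195 genes in all. That background is larger than the 12455 tested genes and was not matched to the carriers in expression or gene type. The GC box was present in 30 of the 39 carrier windows (76.9%) and in 46.3% of all windows. CCAAT was found in 20 (51.3%, against 37.0% of all), the ETS core in 11 (28.2%, against 10.2%) and TATAAA in 3 (7.69%, against 13.1%). Among carriers with a window, the GC box stood in 6 of 8 higher and 7 of 10 lower ones, CCAAT in 3 of 8 higher and 8 of 10 lower ones, and the ETS core in 2 of 8 higher and 3 of 10 lower ones. This split uses the calls as measured, which followed GC content. It was not computed over all higher and lower genes, so these counts have no background and a difference between them was not tested. These are matches of letters and no evidence of binding.

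SLC25A5 had 170 and 174 FPKM in shJARID2 replicates 1 and 2, against 138 and 139 FPKM in shSCR replicates 1 and 2 (log2 fold change 0.31, SE 0.039, adjusted p = 0.0040). Both shJARID2 libraries were above both shSCR libraries, and the change was 0.44 after GC correction (adjusted p = 0.0023). SLC25A6 had 24.9 and 24.5 FPKM in shJARID2, against 53.3 and 55.5 FPKM in shSCR (log2 fold change -1.11, SE 0.044, adjusted p = 0.0014). The groups were well apart, and the difference shrank to -0.33 after GC correction, where it was still called (adjusted p = 0.0087). SLC25A4 was at a low level, with 1.20 and 1.05 FPKM in shJARID2 and 2.60 and 2.97 FPKM in shSCR (log2 fold change -0.83, SE 0.12, adjusted p = 0.0051). Its transcripts have a GC content of 49.3%, near the middle of the table, and the change was -0.81 after GC correction (adjusted p = 0.0071).

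The summed level of the ADP/ATP carriers was 196 and 200 FPKM in shJARID2 and 194 and 197 FPKM in shSCR, so the 2 groups overlapped. SLC25A5 held 86.7% and 87.2% of this sum in shJARID2, against 71.2% and 70.3% in shSCR. SLC25A6 held 12.7% and 12.3% in shJARID2, against 27.4% and 28.2% in shSCR. The ratio of SLC25A5 to SLC25A6 was 6.82 and 7.10 in shJARID2 and 2.60 and 2.50 in shSCR, with no overlap between the groups. These comparisons between genes are on the FPKM scale, which divides by the length of all annotated exons (1500 bases for SLC25A5 and 2164 for SLC25A6). They were not corrected for GC content, which is 51.4% for SLC25A5 and 63.8% for SLC25A6.

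Both genes have a counting limit. SLC25A5 has 9 annotated pseudogene copies, and 15.1% of its exon bases overlap the antisense gene SLC25A5-AS1. Of its possible 50-base reads, 15.4% also occur in other genes. SLC25A6 has 6 annotated pseudogene copies, and 0.861% of its 50-base stretches occur in annotated transcripts of other genes. SLC25A6 lies in the region that the X and Y chromosomes share, and its own Y copy was left out of that search. How reads matching both copies were counted is not given in the sources used here.

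SLC25A3, the carrier that brings phosphate and copper into the matrix, was the second most abundant member. It had 117 and 110 FPKM in shJARID2, against 91.8 and 87.0 FPKM in shSCR (log2 fold change 0.34, SE 0.053, adjusted p = 0.0067). Both shJARID2 libraries were higher, and the change was 0.29 after GC correction (adjusted p = 0.012).

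The ATP-Mg/phosphate carriers set the total adenine nucleotide content of the matrix, and SLC25A24 and SLC25A23 are calcium-regulated. SLC25A24 (SCaMC-1) was higher, with 23.6 and 21.8 FPKM in shJARID2 against 15.4 and 15.5 FPKM in shSCR (log2 fold change 0.53, SE 0.057, adjusted p = 0.0028). SLC25A23 (SCaMC-3) was lower, with 20.3 and 22.1 FPKM in shJARID2 against 41.5 and 41.4 FPKM in shSCR (log2 fold change -0.94, SE 0.055, adjusted p = 0.0014). In both genes the groups did not overlap. GC content is 38.7% for SLC25A24 and 58.6% for SLC25A23. After GC correction the call for SLC25A23 was kept at -0.40 (adjusted p = 0.0032), and SLC25A24 was not called at 0.13 (adjusted p = 0.086). About 13.7% of the exon bases of SLC25A24 overlap another gene.

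As a share of the 4 ATP-Mg/phosphate carriers, SLC25A24 made up 52.5% and 48.9% in shJARID2, against 26.5% and 26.5% in shSCR. SLC25A23 made up 45.2% and 49.4% in shJARID2, against 71.3% and 70.9% in shSCR. Unlike that of the ADP/ATP carriers, the summed level was lower in shJARID2, at 45.0 and 44.7 FPKM against 58.2 and 58.4 FPKM in shSCR. SLC25A25 (SCaMC-2) and SLC25A41 were below the level tested and held between 0.513% and 2.14% of the sum each.

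**Figure D3:**
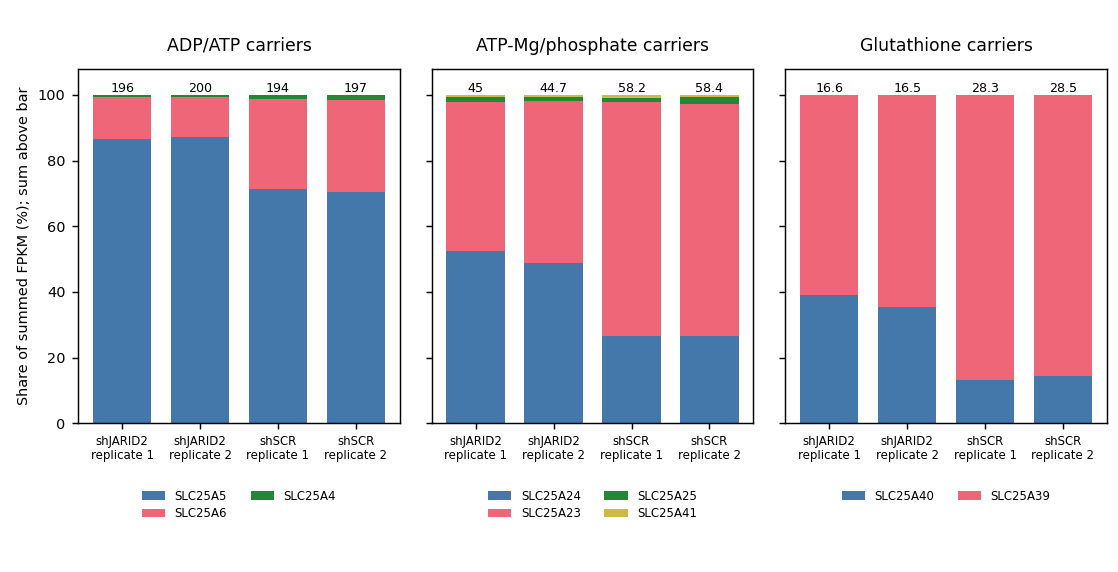
Share of each gene in the summed FPKM of 3 sets of carriers with the same substrate, in percent, for each library, with the shJARID2 libraries on the left of each panel and the summed FPKM printed above each bar. The share of SLC25A5, SLC25A24 and SLC25A40 is larger in both shJARID2 libraries than in both shSCR libraries. Shares are of FPKM as measured, without GC correction, after which SLC25A24 and SLC25A40 were not called. The aspartate/glutamate, pyrimidine nucleotide and mitoferrin pairs, with smaller shifts in ratio, are not drawn.

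Iron and glutathione carriers showed the third such pair. SLC25A39 imports glutathione into the matrix, and SLC25A40 is its close paralogue. SLC25A39 had the most negative log2 fold change of the tested carriers on the scale with 1 FPKM added, although the ratio of mean FPKM was lower for SLC25A4 (0.403, against 0.425 for SLC25A39). It had 10.1 and 10.7 FPKM in shJARID2 against 24.5 and 24.4 FPKM in shSCR (log2 fold change -1.16, SE 0.051, adjusted p = 0.0014). SLC25A40 had 6.49 and 5.83 FPKM in shJARID2, against 3.77 and 4.11 FPKM in shSCR (log2 fold change 0.53, SE 0.087, adjusted p = 0.0078). Neither pair of groups overlapped, and the share of SLC25A40 in the sum of both genes was 39.0% and 35.3% in shJARID2, against 13.3% and 14.4% in shSCR. The sum itself was lower, at 16.6 and 16.5 FPKM in shJARID2 and 28.3 and 28.5 FPKM in shSCR. GC content is 62.3% for SLC25A39 and 34.8% for SLC25A40, the lowest among the called carriers. After GC correction SLC25A39 was still lower at -0.45 (adjusted p = 0.0034), whereas SLC25A40 was at 0.01 (adjusted p = 0.96).

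The mitoferrins bring iron into the matrix for haem and iron-sulphur clusters. SLC25A37 (mitoferrin-1), the more abundant of the pair, had 34.7 and 35.5 FPKM in shJARID2 and 41.2 and 37.6 FPKM in shSCR, and was not called (log2 fold change -0.16, SE 0.059, adjusted p = 0.074). SLC25A28 (mitoferrin-2) was lower by a small amount, with 16.2 and 15.3 FPKM in shJARID2 against 18.4 and 19.8 FPKM in shSCR (log2 fold change -0.26, SE 0.062, adjusted p = 0.022). The groups were close but apart in both genes, and the ratio of SLC25A37 to SLC25A28 overlapped between them, at 2.14 and 2.33 in shJARID2 and 2.24 and 1.90 in shSCR. The call for SLC25A28 was lost without shSCR replicate 1, shSCR replicate 2 or shJARID2 replicate 2, with changes of -0.31, -0.22 and -0.22. It was also lost under correction for exon length, at -0.16 (adjusted p = 0.073). After GC correction SLC25A28 had the opposite sign at 0.10 and was not called (adjusted p = 0.29).

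Amino acid carriers held 7 tested members, of which 1 was higher, 4 were lower and 2 were not called, beside 59.7% called among all tested genes (31.6% lower). After GC correction 1 was higher, 2 were lower and 4 were not called, beside 44.2% called among all genes. SLC25A13 (AGC2, the aspartate/glutamate carrier of the malate-aspartate shuttle in many proliferating tissues) was higher, with 12.7 and 12.2 FPKM in shJARID2 against 10.0 and 10.2 FPKM in shSCR (log2 fold change 0.27, SE 0.053, adjusted p = 0.013). Its paralogue SLC25A12 (AGC1, the form of brain and muscle) had 6.36 and 7.25 FPKM in shJARID2 and 6.39 and 6.37 FPKM in shSCR, with overlapping groups, and was not called (adjusted p = 0.44). SLC25A13 was not called after GC correction (0.07, adjusted p = 0.28). Its call was also lost without shSCR replicate 1, shSCR replicate 2 or shJARID2 replicate 1, with changes of 0.26, 0.28 and 0.25.

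SLC25A22 (GC1), which carries glutamate with protons, was the most abundant amino acid carrier in shSCR, while SLC25A13 was in shJARID2. SLC25A22 had 8.29 and 9.48 FPKM in shJARID2, against 13.9 and 15.5 FPKM in shSCR (log2 fold change -0.67, SE 0.091, adjusted p = 0.0048). The groups were apart as measured, but its GC content is 64.2%, and after GC correction its change was 0.12 (adjusted p = 0.16). SLC25A29, a carrier of basic amino acids, behaved likewise. It had 2.61 and 3.09 FPKM in shJARID2 and 5.17 and 6.09 FPKM in shSCR (log2 fold change -0.78, SE 0.12, adjusted p = 0.0060), and after GC correction its change was 0.07 (adjusted p = 0.51). Its GC content of 65.9% is the highest among the tested carriers that were called.

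SLC25A38 and SLC25A44 were lower as measured and after GC correction. SLC25A38, which brings glycine into the matrix for haem synthesis, had 3.64 and 3.20 FPKM in shJARID2, against 5.90 and 5.96 FPKM in shSCR (log2 fold change -0.65, SE 0.084, adjusted p = 0.0042). After GC correction the change was -0.52 (adjusted p = 0.011). SLC25A44, a carrier of branched-chain amino acids, had 1.39 and 1.75 FPKM in shJARID2, against 2.69 and 2.69 FPKM in shSCR (log2 fold change -0.53, SE 0.12, adjusted p = 0.019). Both have a GC content of 51.6%, near the middle of the table, and in both the groups did not overlap. After GC correction SLC25A44 was at -0.39 (adjusted p = 0.043), and with a replicate block added it was not called (adjusted p = 0.068). Its call as measured was lost when shSCR replicate 1, shSCR replicate 2 or shJARID2 replicate 1 was left out, with changes of -0.53, -0.53 and -0.43, and with no filter on low values (adjusted p = 0.055).

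SLC25A15 (ORC1), the ornithine carrier of the urea cycle, did not differ as measured. It had 4.79 and 4.97 FPKM in shJARID2 and 4.92 and 4.74 FPKM in shSCR, with overlapping groups (log2 fold change 0.01, adjusted p = 0.88). After GC correction it was called higher at 0.27 (adjusted p = 0.029), but not with a replicate block added (adjusted p = 0.057).

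Carriers of nucleotides and cofactors had 8 tested members, of which 2 were higher, 2 were lower and 4 were not called, beside 59.7% called among all tested genes. After GC correction 1 was higher, none was lower and 7 were not called, beside 44.2% called among all genes. SLC25A36 (PNC2), which moves pyrimidine nucleotides needed for mitochondrial DNA and RNA, was the most abundant. It had 18.8 and 17.2 FPKM in shJARID2, against 12.4 and 11.0 FPKM in shSCR (log2 fold change 0.58, SE 0.081, adjusted p = 0.0052). The groups did not overlap, and the change was 0.36 after GC correction (adjusted p = 0.015). Its paralogue SLC25A33 (PNC1) had 3.19 and 3.42 FPKM in shJARID2 and 2.26 and 3.32 FPKM in shSCR, with overlapping groups (adjusted p = 0.34). Of the 50-base stretches of SLC25A33, 21.6% occur in other genes.

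SLC25A42, the coenzyme A carrier, had 1.64 and 1.47 FPKM in shJARID2, against 3.13 and 3.66 FPKM in shSCR (log2 fold change -0.78, SE 0.11, adjusted p = 0.0057). The groups were apart, and the gene was not called after GC correction (-0.17, adjusted p = 0.28).

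SLC25A32, the folate and FAD carrier, was the called gene with the largest rise by log2 fold change, and also the least certain. It had 2.60 and 1.77 FPKM in shJARID2 and 1.24 and 0.896 FPKM in shSCR (log2 fold change 0.62, SE 0.19, adjusted p = 0.044). The groups were apart, but 80.8% of its exon bases overlap DCAF13 and a further annotated gene, and 76.2% of its 50-base stretches occur in another gene. It was not called after GC correction (0.30, adjusted p = 0.22), or without shSCR replicate 1, shSCR replicate 2 or shJARID2 replicate 1 (0.74, 0.50 and 0.43). SLC25A51, the mitochondrial NAD carrier, had 10.3 and 9.73 FPKM in shJARID2 and 9.44 and 9.95 FPKM in shSCR, with overlapping groups (adjusted p = 0.60). Of the 50-base stretches of SLC25A51, 17.6% occur in other genes, among them SLC25A52 and pseudogene copies. SLC25A16, linked to coenzyme A, and the peroxisomal cofactor carrier SLC25A17 had log2 fold changes of 0.15 and 0.18 and were not called.

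Of the carriers of di- and tricarboxylates, only SLC25A11 reached the level tested. It exchanges oxoglutarate for malate and is the other carrier of the malate-aspartate shuttle. It had 26.1 and 26.1 FPKM in shJARID2 and 27.7 and 26.9 FPKM in shSCR and was not called (log2 fold change -0.06, SE 0.043, adjusted p = 0.28). After GC correction it was called higher at 0.51 (adjusted p = 0.0037), the second largest corrected rise among the carriers after SLC25A43. Its GC content is 59.3%.

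SLC25A1, the citrate carrier that supplies cytosolic acetyl-CoA for lipid synthesis, was near the bottom of the table. It had 0.111 and 0.0745 FPKM in shJARID2 and 0.708 and 0.206 FPKM in shSCR, which correspond to 3 and 2 recovered reads against 23 and 7 recovered reads. It was below the level tested. SLC25A1 has 5 annotated pseudogene copies, though 0% of its 50-base stretches occur in annotated transcripts of other genes. How reads with several matches were counted is not given in the sources used here. These values may not be the full level of the gene, which was not tested. The dicarboxylate carrier SLC25A10 and the oxodicarboxylate carrier SLC25A21 were below 0.5 FPKM in every library.

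Neither uncoupling-protein relative that was tested was called. SLC25A27 (UCP4) had 4.02 and 3.18 FPKM in shJARID2 and 3.32 and 2.91 FPKM in shSCR, and SLC25A14 (UCP5) had 0.975 and 1.38 FPKM in shJARID2 and 1.05 and 1.36 FPKM in shSCR. The groups overlapped in both. SLC25A20, which brings acylcarnitines into the matrix for fatty acid oxidation, had 2.57 and 1.62 FPKM in shJARID2 and 1.30 and 1.65 FPKM in shSCR and was not called (log2 fold change 0.31, SE 0.20, adjusted p = 0.24). Its 2 shJARID2 libraries differed more from each other than the group means did.

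**Figure D4:**
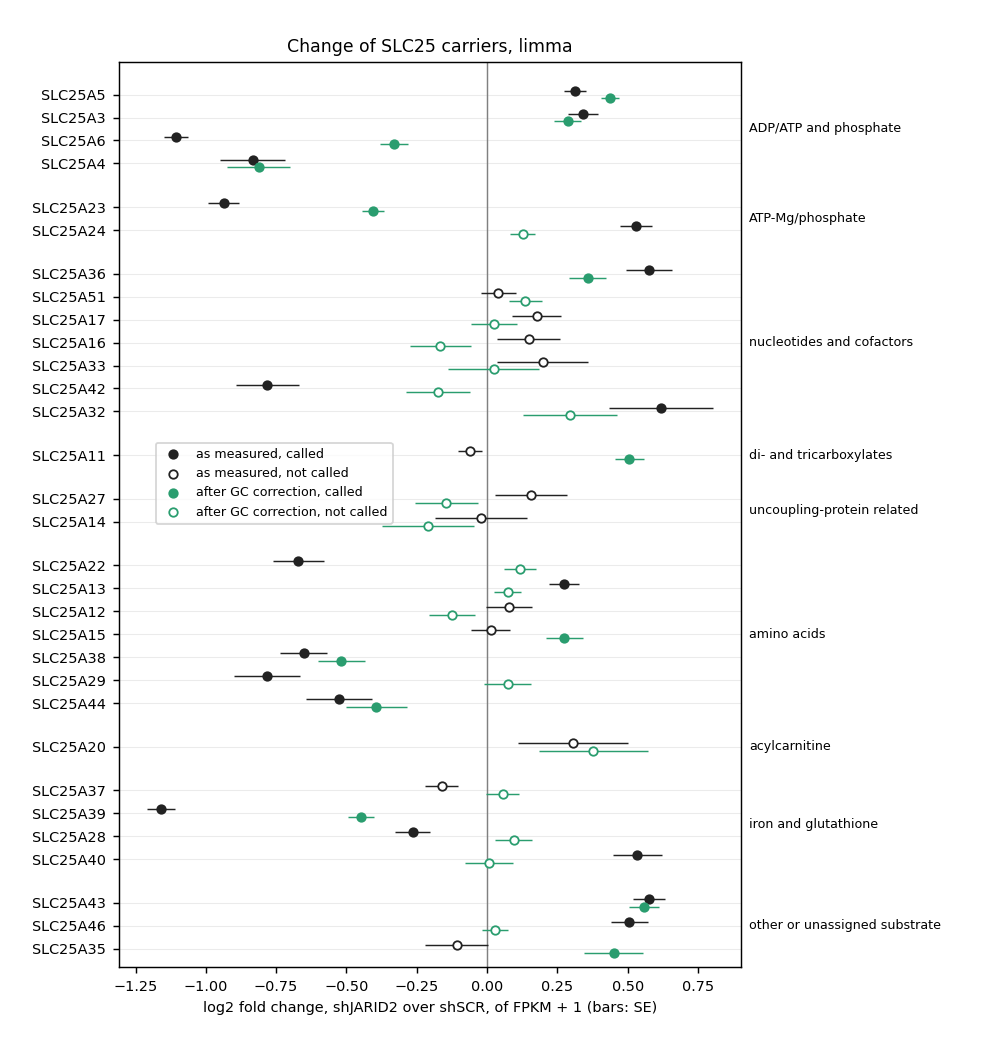
Log2 fold change of shJARID2 over shSCR, on the scale of FPKM + 1, for 31 tested SLC25 carriers by substrate group, with bars of 1 SE from limma. Black is as measured, green is after GC correction, and filled points are called at an adjusted p below 0.05. The 10 carriers with both points filled on the same side of 0 include SLC25A5, SLC25A43, SLC25A6 and SLC25A39.

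Among carriers without an assigned substrate here, SLC25A43 was higher on both scales. It had 23.6 and 22.3 FPKM in shJARID2, against 15.5 and 14.7 FPKM in shSCR (log2 fold change 0.58, SE 0.056, adjusted p = 0.0023). The change was 0.56 after GC correction (adjusted p = 0.0030), the largest corrected rise of any carrier, and no 50-base stretch of it occurs in another gene. SLC25A43 and SLC25A5 lie close together on the same strand of chromosome X, at 119399060 to 119454478 and 119468400 to 119471319 (GRCh38, GENCODE release 29), and both were higher. Of all tested genes 28% were higher, and whether neighbouring genes share a direction was not tested.

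SLC25A46, a member of the outer membrane linked to mitochondrial fission and lipid transfer, had 22.2 and 21.6 FPKM in shJARID2, against 15.9 and 14.4 FPKM in shSCR (log2 fold change 0.51, SE 0.065, adjusted p = 0.0041). The groups were apart as measured, but its GC content is 36.4%, and after GC correction the change was 0.03 (adjusted p = 0.65). SLC25A35 had 1.64 and 1.64 FPKM in shJARID2 and 1.72 and 1.98 FPKM in shSCR, and was not called as measured (log2 fold change -0.11, adjusted p = 0.44). It was called higher after GC correction (0.45, adjusted p = 0.028) but not with a replicate block added (adjusted p = 0.057), and 33.2% of its exon bases overlap RANGRF.

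The 15 untested carriers ranged from 0 to 1.25 FPKM. When all 24470 rows above 0 were fitted, 2949 were called higher and 3621 lower. Of these carriers 2 were called, both lower, SLC25A10 at -0.34 (adjusted p = 0.041) and SLC25A34 at -0.33 (adjusted p = 0.015). Their GC content is 64.9% and 64.2%, and no GC-corrected value was computed for them. Of the exon bases of SLC25A10, 46.6% overlap AC139530.2. SLC25A10 had 2 and 0 recovered reads in shJARID2 and 10 and 15 in shSCR, and SLC25A34 had 2 and 1 in shJARID2 and 15 and 16 in shSCR. The untested carriers above 0.5 FPKM in any library were SLC25A1, SLC25A25, SLC25A26, SLC25A30, SLC25A41 and SLC25A45. SLC25A30 (KMCP1), related to the uncoupling proteins, had 0.466 and 0.747 FPKM in shJARID2 and 1.03 and 1.02 FPKM in shSCR. SLC25A45 had 0.265 and 0.636 FPKM in shJARID2 and 1.01 and 0.747 FPKM in shSCR. Both shJARID2 libraries were below both shSCR libraries for these 2 genes, which were not called in that fit. SLC25A25 had 0.798 and 0.506 FPKM in shJARID2 and 0.706 and 1.25 FPKM in shSCR, and SLC25A26, the S-adenosylmethionine carrier, had 0.541 and 0.227 FPKM in shJARID2 and 0.618 and 0.454 FPKM in shSCR. The groups overlapped for SLC25A25 and SLC25A26. SLC25A41 had 0.234 and 0.284 FPKM in shJARID2 and 0.548 and 0.30 FPKM in shSCR. SLC25A2, SLC25A10, SLC25A18, SLC25A21, SLC25A34, SLC25A47, SLC25A48, SLC25A52 and SLC25A53 stayed below 0.5 FPKM in every library.

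Lists of genes that work with the carriers were read from the same fit. Of 93 tested partner genes, 35 were higher and 27 lower as measured, and 33 were higher and 17 lower after GC correction. Among all tested genes, 28% were higher and 31.6% lower as measured (59.7% called). After GC correction the shares were 22.7% and 21.5% (44.2% called). The counts of each list below stand beside these shares, and the lists are small and were put together by hand. Without shSCR replicate 1 and without shSCR replicate 2, 23 and 21 of them were higher. Their median log2 fold change was 0.11 as measured and 0.06 after GC correction.

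The machinery that imports carriers had 14 tested genes, with 5 higher and 3 lower as measured. TOMM7, a small subunit of the outer-membrane import pore, had 35.1 and 21.9 FPKM in shJARID2 against 7.81 and 8.11 FPKM in shSCR (log2 fold change 1.68, adjusted p = 0.0047). TOMM40, the channel of that pore, had 8.47 and 11.3 FPKM in shJARID2 against 29.3 and 33.0 FPKM in shSCR (log2 fold change -1.57, adjusted p = 0.0021). Subunits of the same complex thus differed in opposite directions, and both calls were kept after GC correction (1.47 and -0.82). TOMM20, the receptor and the most abundant gene of the list, had 112 and 107 FPKM in shJARID2 against 71.2 and 66.8 FPKM in shSCR (log2 fold change 0.65, adjusted p = 0.0017).

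Relatives of the family under other symbols had 4 tested genes, of which 2 were higher and 1 was lower. MTCH2, an insertase of the outer membrane, had 71.9 and 72.0 FPKM in shJARID2 against 41.8 and 39.2 FPKM in shSCR (log2 fold change 0.82, adjusted p = 0.0014). Its paralogue MTCH1 had 18.9 and 24.6 FPKM in shJARID2 against 64.7 and 67.1 FPKM in shSCR (log2 fold change -1.57, adjusted p = 0.0018). This pair therefore differed in opposite directions, as SLC25A5 and SLC25A6 did, and both calls were kept after GC correction (0.63 and -1.04). UCP2, an uncoupling-protein relative that carries C4 metabolites, had 64.4 and 66.4 FPKM in shJARID2 against 41.9 and 45.0 FPKM in shSCR (log2 fold change 0.58, adjusted p = 0.0020).

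Other mitochondrial membrane carriers had 21 tested genes, with 11 higher and 4 lower as measured and 11 higher and 2 lower after GC correction. Of all tested genes, 28% were higher and 31.6% lower as measured, and 22.7% and 21.5% after it. The called genes of the list were not all the same as measured and after GC correction. MICU2 was called higher as measured (0.21) and lower after GC correction (-0.19, adjusted p = 0.035). SLC8B1 was called lower as measured (-0.21) and higher after GC correction (0.29, adjusted p = 0.015). MICU3, a regulator of the calcium uniporter, had 14.0 and 12.1 FPKM in shJARID2 against 5.70 and 5.39 FPKM in shSCR (log2 fold change 1.10, adjusted p = 0.0017). ABCB10, an inner-membrane transporter that red cell precursors need for haem synthesis, had 18.0 and 17.8 FPKM in shJARID2 against 9.92 and 8.54 FPKM in shSCR (log2 fold change 0.89, adjusted p = 0.0020). The groups did not overlap, and both calls were kept after GC correction (0.56 and 0.71). VDAC2, an outer-membrane channel and the gene of highest mean level in the list over all libraries, was higher by 0.55 (adjusted p = 0.0043).

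Enzymes that use the carriers' substrates were divided. Among 15 tested enzymes around citrate and the malate-aspartate shuttle, 5 were higher and 6 lower. IDH2, a mitochondrial isocitrate dehydrogenase, had 2.99 and 3.69 FPKM in shJARID2 against 7.25 and 7.13 FPKM in shSCR (log2 fold change -0.92, adjusted p = 0.0030). The groups were apart, and the call was kept after GC correction (-0.43). ACLY, which cleaves exported citrate, had 67.1 and 67.4 FPKM in shJARID2 against 103 and 106 FPKM in shSCR (log2 fold change -0.63, adjusted p = 0.0014).

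Of 8 tested genes of mitochondrial folate and glycine use, 3 were higher and 3 lower as measured, and after GC correction 2 were lower and none was higher. SHMT2, which splits serine into glycine and a folate-bound carbon, had a log2 fold change of -0.62 and was not called after GC correction (-0.08, adjusted p = 0.12). MTHFD2, the next enzyme of that route, was lower with log2 fold changes of -0.61 as measured and -0.81 after GC correction (adjusted p = 0.0066), and 33.2% of its exon bases overlap another gene. Of 8 ornithine and proline enzymes, 2 were higher and 4 lower. PYCR1, which makes proline, was lower, at -1.13 as measured and -0.41 after GC correction (adjusted p = 0.031). ASL, of the urea cycle, was at -0.96 as measured, where it was called, and not called after GC correction (-0.25, adjusted p = 0.15). ODC1, which makes putrescine from ornithine, was the most abundant of them and was higher by 0.40 (adjusted p = 0.010).

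Iron-sulphur and haem assembly had 13 tested genes, with 5 higher and 1 lower as measured and 7 higher and none lower after GC correction. Of all tested genes, 28% were higher and 31.6% lower as measured, and 22.7% and 21.5% after the correction. ISCA1, an iron-sulphur assembly protein, had 28.1 and 23.8 FPKM in shJARID2 against 10.9 and 10.8 FPKM in shSCR (log2 fold change 1.18, adjusted p = 0.0016). CPOX, an enzyme of haem synthesis, had 30.7 and 28.7 FPKM in shJARID2 against 16.2 and 15.6 FPKM in shSCR (log2 fold change 0.86, adjusted p = 0.0014). ALAS1, the first enzyme of haem synthesis and a user of the glycine that SLC25A38 imports, had 49.4 and 48.7 FPKM in shJARID2 and 52.6 and 53.5 FPKM in shSCR and was not called (adjusted p = 0.068).

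Carnitine and fatty acid oxidation had 10 tested genes, with 2 higher and 5 lower as measured and 2 higher and 1 lower after GC correction. HADHB, a subunit of the trifunctional protein, had 61.3 and 56.9 FPKM in shJARID2 against 31.1 and 29.6 FPKM in shSCR (log2 fold change 0.94, adjusted p = 0.0014). HADHA, the other subunit, had 41.8 and 43.0 FPKM in shJARID2 against 46.8 and 48.3 FPKM in shSCR (log2 fold change -0.16, adjusted p = 0.032). Both calls were kept after GC correction, at 0.74 and -0.15. ACADS, which starts the oxidation of short chains, was lower as measured, at -0.87, and was not called after GC correction (-0.07, adjusted p = 0.53).

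**Figure D5:**
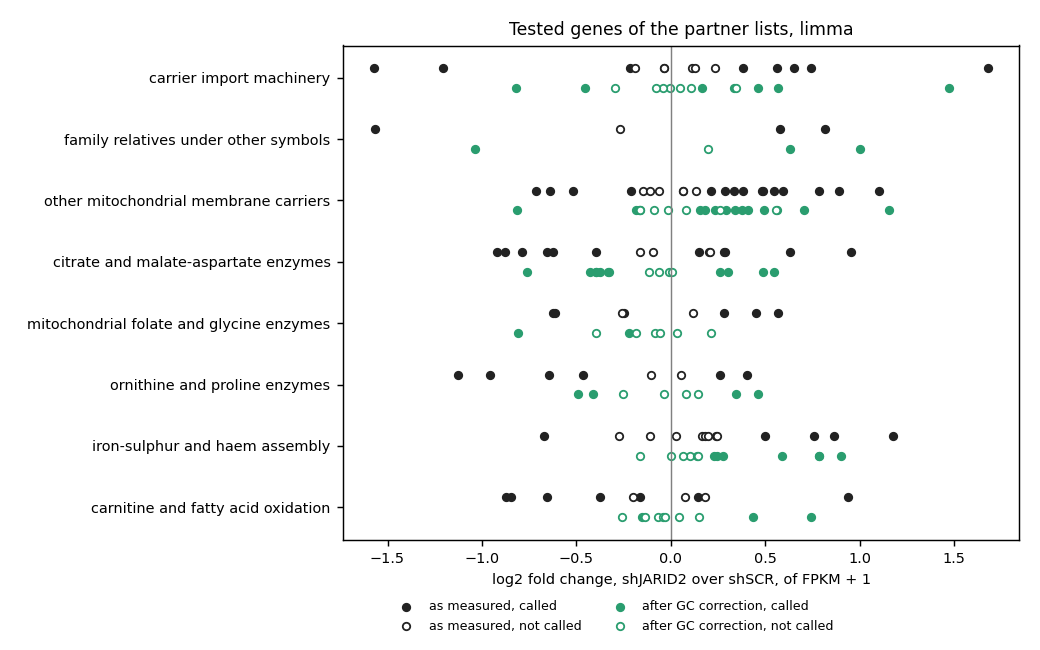
Log2 fold change of shJARID2 over shSCR, on the scale of FPKM + 1, for the 93 tested genes of 8 lists of carrier partners, 1 point a gene. Black is as measured, green is after GC correction, and filled points are called at an adjusted p below 0.05. The widest spread is in the import machinery, where TOMM7 stands at 1.68 and TOMM40 at -1.57.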

How the data were processed

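RNA of 4 MDA-MB-231 libraries, 2 shJARID2 and 2 shSCR, was sequenced. The deposited values are FPKM per gene, per the file headers, in 85553 rows, of which 60420 have no symbol and were left out (24.0% and 24.5% of all FPKM in shJARID2, 21.4% and 21.1% in shSCR). Per the submitters' processing notes, reads went through Trimmomatic, HISAT2, SAMtools and featureCounts. Versions, genome build, annotation, RNA selection, read length and strand use: not given in the sources used here. Since strand use is unknown, overlapping and antisense genes cannot be told apart.

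Exon lengths, coordinates, GC content and overlaps were taken from GENCODE release 29 (GRCh38), which 24344 of 25133 named rows matched. Symbols shared by several rows were given none of these, a correction made after first results were seen, before which SLC25A15 was not called after GC correction. With these lengths, 95.9% to 96.3% of values up to 20 reads lay within 0.05 of a whole read, which gave the depths. Rows with a mean of at least 1 FPKM entered limma 3.58.1 (R 4.3.3), fitted to log2(FPKM + 1) (trend, group as the only term, 2 residual and 2.36 prior degrees of freedom) and Benjamini-Hochberg adjustment over all 12455 rows. A count test was planned only if the files held counts. For GC correction, a loess curve (span 0.3, degree 2) of each library's deviation from the gene mean on GC content was subtracted. Replicates differed by more than sampling noise, with a chi-square of recovered reads per degree of freedom of 3.65 in shJARID2 and 3.16 in shSCR. The fit was also run on simulated data in which far fewer genes changed than were called here. That run checks the code and does not measure how reliable these calls are. Alternatives changed the pseudocount, filter, scaling, test, GC or length correction, replicate block, or left out 1 library each.

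Carriers were grouped by substrate, and partner genes listed, by hand; of 109 listed partners 106 had a row. The members and lists were chosen with earlier results of these data known. The values of 1 tested carrier and 1 partner gene are not reported here by name, and that carrier is left out of the plots by gene; both stay in the counts. Those described by library are the most abundant and the most changed of each substrate group, the 8 largest rises and falls, and calls that GC correction ended; in each partner list they are the 2 called genes of largest change and the most abundant one, with UCP2 added after its values were seen.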

Additional observations from a re-analysis of the deposited data

How the results depend on the processing

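Of 20 called carriers, 9 (SLC25A3, SLC25A4, SLC25A5, SLC25A6, SLC25A23, SLC25A36, SLC25A38, SLC25A39 and SLC25A43) kept their call and direction under all 15 alternatives, and 15 under the 13 without GC correction. JARID2 was called lower in all 15. GC correction gave 6 lower carriers, 2600 lower genes and 17 lower partners; together with a replicate block it gave 5 higher and 5 lower carriers, 2338 lower genes and 16 lower partners. Under both, the sign turned for the called or newly called SLC25A11 (0.51), SLC25A22 (0.12), SLC25A28 (0.10) and SLC25A29 (0.074) and SLC25A35 (0.45, called under GC correction alone), and for SLC25A12, SLC25A16, SLC25A27 and SLC25A37, which were not called under either or as measured. Whether libraries of the same replicate number were made together is not told by the labels, and these values cannot decide it. Replicate differences of the groups correlated at 0.029, and at -0.013 after GC correction. In both groups they rose with GC content, with rho of 0.30 in shJARID2 and 0.29 in shSCR. The replicate block alone gave 9 higher and 11 lower carriers and changed the call of no carrier. Leaving out 1 library each time gave 7 to 9 higher and 8 to 10 lower carriers, 2168 to 3068 higher and 2462 to 3763 lower genes, and 21 to 31 higher and 18 to 23 lower partners; the lone library was assumed to vary like the other group. Limma-voom on recovered reads called 9 higher and 12 lower carriers and 3844 higher and 4262 lower genes of 12118. With 2 libraries a group and about 12800000 to 16200000 reads, values below 1 FPKM rest on few reads; with no filter, 8 carriers were higher and 12 lower.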
